A study of Mus musculus with 18 samples.

Results

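Chemokine ligands were taken as every gene symbol of the deposited tables that begins with Ccl, Cxcl or Cx3cl followed by a number. There were 39 such symbols among 25696 listed in all. A ligand was counted as detected when it reached 1 FPKM (fragments per kilobase of transcript, scaled by library size, and so a level per length) in at least 3 of the 18 libraries, and 24 ligands were detected while 15 were not. Entries under a common symbol were added up, and 3 of the 24 (Ccl21a, Ccl21c and Ccl21d) reached that level in 3 libraries only as such sums. The libraries were made from polyadenylated RNA of mouse inguinal white adipose tissue (iWAT), the fat depot of the groin, and of cultures of the depot's stromal-vascular cells, which can be turned into adipocytes. The tissue groups were wild type (WT) iWAT and NFIA-Tg iWAT, and the culture groups were WT and NFIA-Tg cells at day 0, before adipogenic induction, and at day 7, after it, with 3 libraries in each of the 6 groups. NFIA-Tg denotes a transgene for nuclear factor I A, a transcription factor encoded by Nfia; the sources used here do not give its promoter or the age and sex of the animals. Per the protocols, confluent cultures were induced for 48 hours with isobutylmethylxanthine, indomethacin, dexamethasone, insulin, T3 and rosiglitazone, and then kept in insulin, T3 and rosiglitazone, in both genotypes alike. The labels do not say whether replicates are separate animals or cultures, and p-values then measure only a spread between libraries that may be technical.

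Chemokines are small secreted proteins that direct the migration of leukocytes through G protein-coupled receptors on the cells they attract. They are named for the spacing of their first cysteines, CC, CXC or CX3C. Many are induced through NF-κB or interferon signalling, while others, such as Cxcl12 and Cxcl14, are made constitutively by stromal cells. In adipose tissue the ligands of Ccr2, above all Ccl2, are known for recruiting monocytes that become adipose tissue macrophages.

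The culture libraries held 16772594 to 28625625 reads recovered from their FPKM values, and how deeply the iWAT libraries were sequenced is unknown. Nfia was 3.73, 4.19 and 3.94 FPKM in WT iWAT and 166, 99.6 and 157 FPKM in NFIA-Tg iWAT, and at day 0 WT had 6.42, 6.3 and 6.51 FPKM and NFIA-Tg 11.3, 12.5 and 11.9. At day 7 Nfia went against the labels, with 12.5, 13 and 12 FPKM in WT against 6.44, 7.32 and 7.2 FPKM in libraries labelled NFIA-Tg (-0.76 ± 0.05 on the log2 scale, adjusted p = 3.34e-08). Every genotype direction at day 7 below is therefore that of the labels. The summed level of 8 macrophage markers was 547 to 780 FPKM in iWAT and 3.16 to 9.63 FPKM in the cultures, where C1qa and Cd163 were listed at 0 in every library. Adipocyte markers summed to 25411 FPKM or more in iWAT, to 8.28 to 24.6 FPKM at day 0 and to 23635 to 28703 FPKM at day 7, where most of the sum was Fabp4, at means of 22169 FPKM in WT and 25679 FPKM in libraries labelled NFIA-Tg. Levels in tissue and cultures come from tables made separately, so they are given side by side and only differences within each are tested.

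The most abundant ligands differed between the materials. WT iWAT was led by Cxcl12, Ccl11 and Ccl6 with means of 81.1, 78 and 68.7 FPKM, and the same 3 ligands led NFIA-Tg iWAT. Day 0 cultures of WT were led by Ccl2, Ccl7 and Cxcl12 with means of 486, 470 and 353 FPKM. Day 7 cultures of WT were led by Cxcl12, Cxcl10 and Ccl2 with means of 63.3, 54.4 and 38 FPKM. The day 7 libraries labelled NFIA-Tg held 1 ligand with a mean of at least 10 FPKM, Cxcl10 at 18.1 FPKM, against 5 such ligands in WT at day 7, 9 and 11 at day 0 in WT and NFIA-Tg, and 9 and 8 in iWAT. Summed over all 39 symbols, the ligands came to 421 ± 36.7 FPKM (SD, n = 3) in WT iWAT and 389 ± 7.3 in NFIA-Tg iWAT, to 1723 ± 62 and 1445 ± 255 at day 0, and to 242 ± 37.4 and 61.2 ± 4.23 at day 7. The 3 sums of one genotype lay apart from those of the other only at day 7, where WT held 209, 234 and 282 FPKM and the libraries labelled NFIA-Tg held 62.2, 64.8 and 56.5 FPKM.

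**Figure D1:**
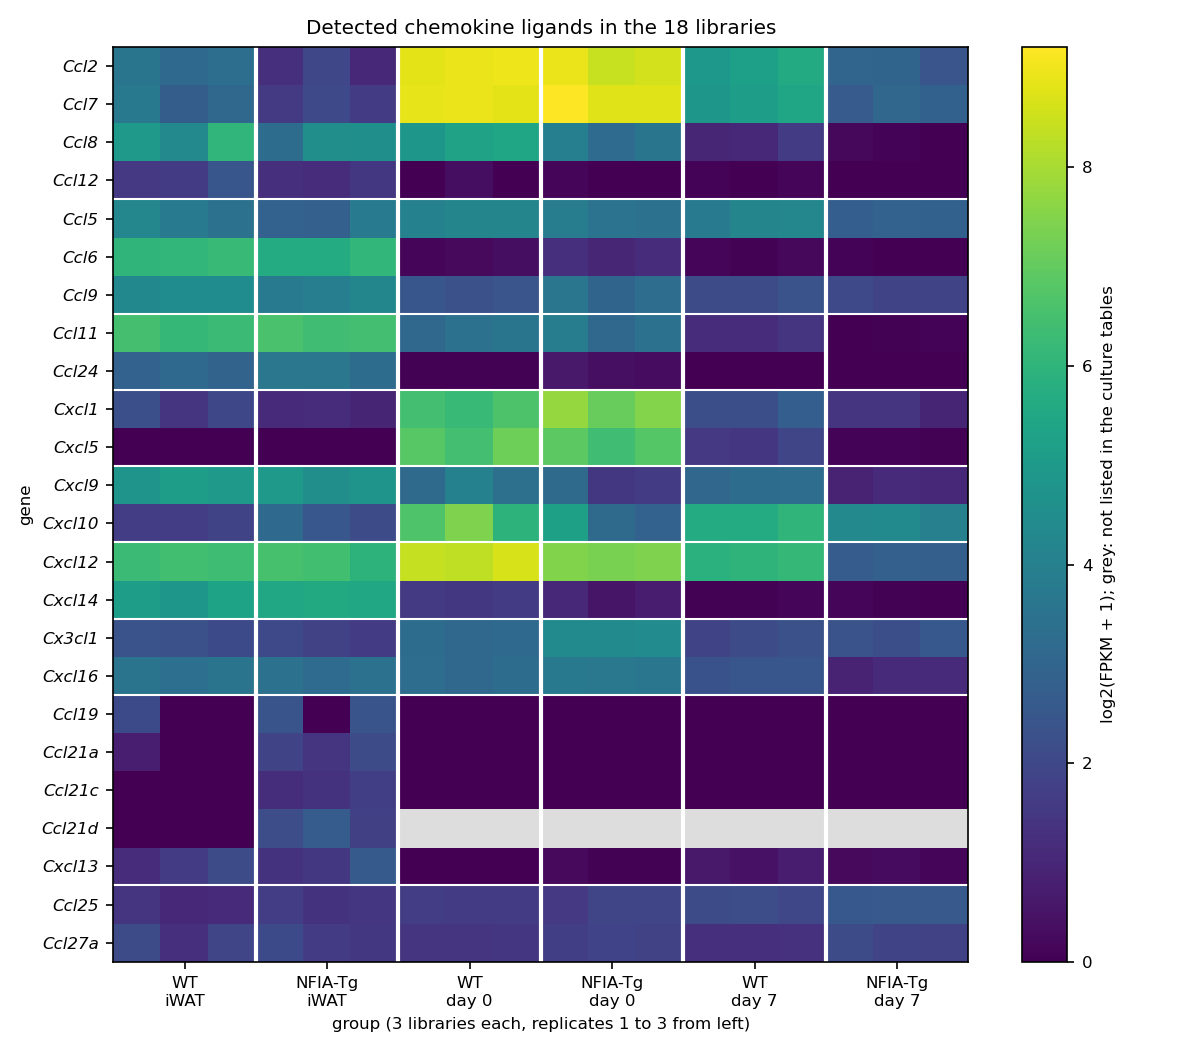
Level of each detected chemokine ligand as log2(FPKM + 1) (colour) in each of the 18 libraries (columns, by group), ordered by role (rows). The day 0 columns carry the highest levels, of Ccl2 and Ccl7, and the day 7 columns labelled NFIA-Tg are the darkest (lowest) among the cultures, while grey marks Ccl21d, which the culture tables used here do not list.

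Ccl2, the main ligand of Ccr2 on monocytes, was lower in NFIA-Tg tissue, was not shown to differ before differentiation, and was lower in the differentiated cells labelled NFIA-Tg. In WT iWAT it was 11.1, 7.85 and 8.93 FPKM, and in NFIA-Tg iWAT 1.36, 2.93 and 1.03 FPKM. The groups did not overlap and the means were 5.25-fold apart (log2 change -1.94 ± 0.25 SE on the log2(FPKM + 1) scale used for all changes, limma adjusted p = 0.00341). In a bulk sample, fewer cells of a type and less RNA per cell cannot be told apart. Before induction, Ccl2 was 461, 495 and 502 FPKM in WT against 488, 343 and 386 FPKM in NFIA-Tg, which overlapped (-0.28 ± 0.19, adjusted p = 0.219). At day 7 WT held 29.3, 35.8 and 48.9 FPKM and libraries labelled NFIA-Tg held 7.11, 6.87 and 4.44 FPKM. That difference was 6.19-fold between the means with no overlap (-2.44 ± 0.19, adjusted p = 8.11e-08), and it rested on 594 to 867 reads a library in WT and on 60 to 152 in those labelled NFIA-Tg.

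Ccl2 fell during differentiation in both genotypes, 12.8-fold in WT (-3.67 ± 0.19, adjusted p = 1.1e-09) and 66.1-fold in the cells labelled NFIA-Tg (-5.84 ± 0.19, adjusted p = 6.06e-12). The genotype difference thus shifted by -2.17 ± 0.26 from day 0 to day 7 (adjusted p = 1.03e-05). Between iWAT and day 7 the genotype difference of Ccl2 differed by 0.50 ± 0.36, which did not pass the test (adjusted p = 0.259). Leaving out any 1 library changed neither the direction nor the call of Ccl2 in any of the 7 comparisons.

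Ccl7, another Ccr2 ligand, lies next to Ccl2 in the gene order of GRCm38.p6 and had nearly the same levels. It was 12.1, 5.63 and 7.35 FPKM in WT iWAT and 1.94, 3.13 and 2.03 FPKM in NFIA-Tg iWAT, without overlap (-1.43 ± 0.25, adjusted p = 0.0115). At day 0 WT held 466, 485 and 459 FPKM and NFIA-Tg held 592, 430 and 438 FPKM (0.03 ± 0.15, adjusted p = 0.862). After differentiation Ccl7 was 28.2, 34.4 and 42.6 FPKM in WT against 5.19, 7.16 and 6.19 FPKM in libraries labelled NFIA-Tg. All 3 of the latter lay below WT, by 5.67-fold between the means (-2.32 ± 0.15, adjusted p = 1.58e-08), and the shift of the genotype difference from day 0 to day 7 was -2.35 ± 0.21 (adjusted p = 6.42e-07). Ccl7 fell 13.4-fold during differentiation in WT and 78.7-fold in the cells labelled NFIA-Tg. The ratio of Ccl7 to Ccl2 stayed between 0.718 and 1.98 in all 18 libraries, while Ccl2 itself ranged from 1.03 to 502 FPKM.

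Ccl8 and Ccl12, which lie in the same gene cluster, did not follow Ccl2 in every group. Ccl8 was 29.6, 19.2 and 65.2 FPKM in WT iWAT and 8.63, 22.2 and 23.3 FPKM in NFIA-Tg iWAT, which overlapped (-0.97 ± 0.47, adjusted p = 0.215). At day 0 WT held 28, 39.1 and 41.9 FPKM and NFIA-Tg held 14.8, 8.31 and 10.9 FPKM, a 3.2-fold lower mean with no overlap (-1.61 ± 0.21, adjusted p = 2.62e-05). Ccl2 and Ccl7 had not passed the test at day 0. At day 7 Ccl8 was 1.01, 1.1 and 2.13 FPKM in WT against 0.148, 0.0742 and 0 FPKM in libraries labelled NFIA-Tg, or 13, 12 and 24 reads against 2, 1 and 0 (-1.14 ± 0.21, adjusted p = 0.000243). With so few reads the shift of its genotype difference between the days depended on the scale: it was 0.47 ± 0.29 with a pseudocount of 1 (adjusted p = 0.172) and -1.46 with a pseudocount of 0.1 (adjusted p = 0.018). It also passed the test without NFIA-Tg replicate 1 at day 0 (0.66) or WT replicate 3 at day 7 (0.67). Ccl12, a mouse monocyte attractant, was 1.9, 2.05 and 4.47 FPKM in WT iWAT and 1.4, 1.25 and 1.8 FPKM in NFIA-Tg iWAT (-0.56 ± 0.25, adjusted p = 0.18), and reached at most 0.255 FPKM in cultures.

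**Figure D2:**
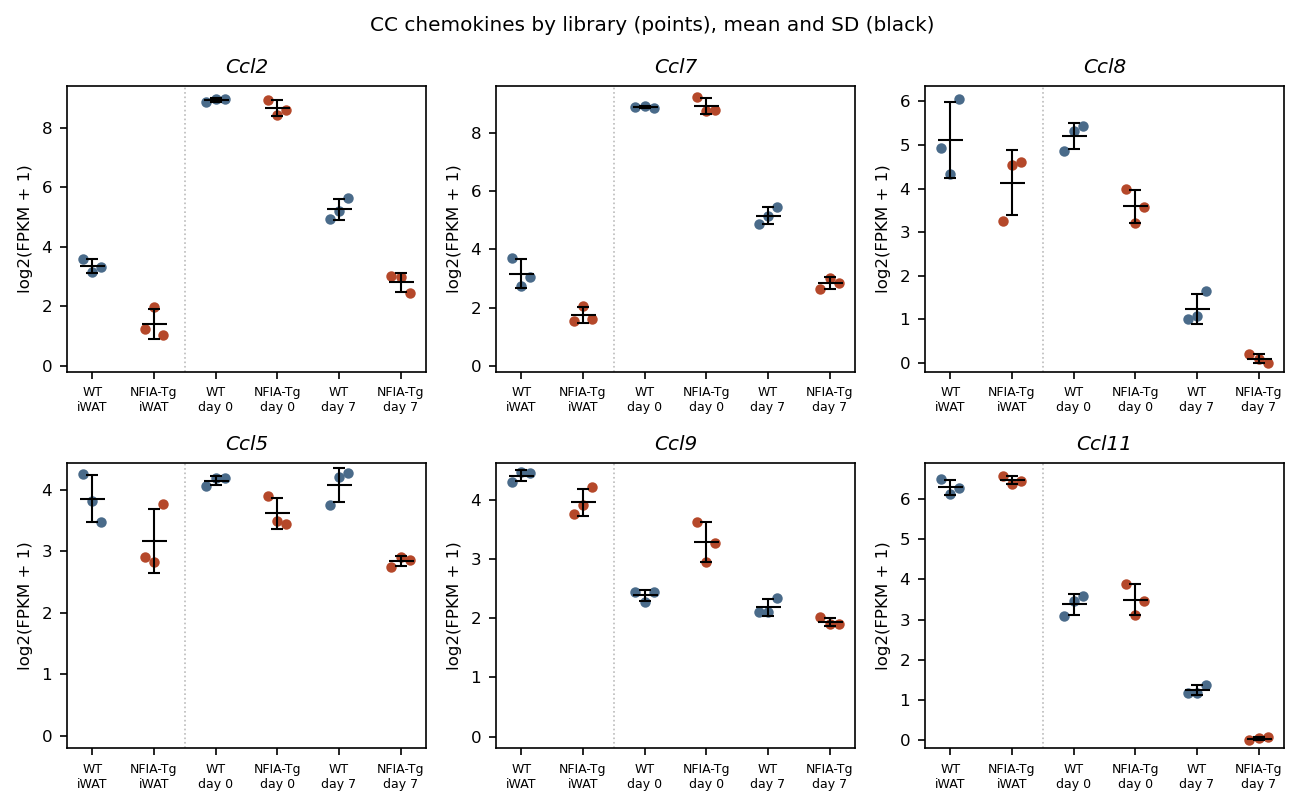
FPKM on a log2(FPKM + 1) axis of CC chemokines in the 6 groups, with 1 point per library, WT in blue and NFIA-Tg in red, and bars for the mean ± SD of 3 libraries. Ccl2 and Ccl7 are separated by genotype in iWAT and at day 7 and overlap at day 0, while Ccl8 is separated at day 0.

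Ccl5, Ccl6 and Ccl9 were the detected members of a group of inflammatory CC ligands that attract monocytes, T cells and other leukocytes. Ccl5 was 18.1, 13.2 and 10.2 FPKM in WT iWAT and 6.53, 6.1 and 12.7 FPKM in NFIA-Tg iWAT (-0.68 ± 0.28, adjusted p = 0.153; 0.0443 without NFIA-Tg replicate 3). In WT cultures it was 15.7, 17.2 and 17.4 FPKM at day 0 and 12.5, 17.5 and 18.3 FPKM at day 7, a change that did not pass the test (-0.07 ± 0.14, adjusted p = 0.634). In NFIA-Tg it was 14, 10.3 and 9.93 FPKM at day 0 and 5.75, 6.5 and 6.29 FPKM at day 7, below WT without overlap at both times. The change with genotype was -0.53 ± 0.14 at day 0 (adjusted p = 0.00425) and -1.24 ± 0.14 at day 7 (adjusted p = 2.54e-06), and the shift between them was -0.70 ± 0.19 (adjusted p = 0.00534).

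Ccl9, a macrophage chemokine of rodents, was higher in NFIA-Tg before differentiation and not after it. At day 0 WT held 4.48, 3.86 and 4.43 FPKM and NFIA-Tg held 11.4, 6.75 and 8.73 FPKM, where it rose without overlap (0.90 ± 0.13, adjusted p = 8.8e-05). After differentiation Ccl9 was 3.31, 3.31 and 4.09 FPKM in WT against 3.06, 2.73 and 2.74 FPKM in libraries labelled NFIA-Tg, a difference that did not pass the test (-0.25 ± 0.13, adjusted p = 0.109), although it did on a TPM scale and without NFIA-Tg replicate 1 or 2 at day 0. Its genotype difference shifted by -1.15 ± 0.19 between the days (adjusted p = 0.000151). In iWAT Ccl9 was 18.8, 21.2 and 21.1 FPKM in WT against 12.6, 14.2 and 17.6 FPKM in NFIA-Tg, below WT in every library but short of the threshold (-0.45 ± 0.13, adjusted p = 0.0687; 0.037 without NFIA-Tg replicate 3). Ccl6, a neighbour of Ccl9 in GRCm38.p6 and likewise a rodent chemokine of myeloid cells, was high in tissue, at 64, 67.1 and 75 FPKM in WT against 49.2, 49.4 and 67.3 FPKM in NFIA-Tg (-0.32 ± 0.14, adjusted p = 0.177). In cultures Ccl6 reached 1 FPKM only in NFIA-Tg at day 0, with 1.34, 0.977 and 1.24 FPKM. Ccl3 and Ccl4 were not detected and peaked at 1.52 and 0.847 FPKM, both in iWAT.

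The eotaxins attract eosinophils through Ccr3. Ccl11 was among the 3 most abundant ligands of the tissue, at 89, 68.7 and 76.4 FPKM in WT iWAT and 94.7, 82.6 and 85.9 FPKM in NFIA-Tg iWAT (0.17 ± 0.12, adjusted p = 0.378). In cultures it was 7.57, 9.96 and 11.1 FPKM in WT at day 0 and 13.9, 7.74 and 10.1 FPKM in NFIA-Tg (0.11 ± 0.16, adjusted p = 0.578). At day 7 Ccl11 was 1.26, 1.26 and 1.61 FPKM in WT against 0, 0.0353 and 0.0556 FPKM in libraries labelled NFIA-Tg. It was thus all but absent from the latter, with 0, 1 and 1 reads against 34, 29 and 38 in WT (-1.20 ± 0.16, adjusted p = 2.07e-05). Its genotype difference was 1.38 ± 0.14 higher in iWAT than at day 7 (adjusted p = 8.13e-06). Ccl24 was found in tissue only above 1 FPKM, at 6.36, 7.83 and 6.63 FPKM in WT against 11.5, 11.6 and 8.45 FPKM in NFIA-Tg. The NFIA-Tg values all lay above WT, with a change of 0.53 ± 0.15 that missed the threshold (adjusted p = 0.0559) and passed it without NFIA-Tg replicate 3 (adjusted p = 0.0322).

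Neutrophils are attracted through Cxcr2, and of its ligands Cxcl1 and Cxcl5 were detected. Cxcl1 was 3.72, 1.7 and 3.04 FPKM in WT iWAT and 1.13, 1.26 and 0.938 FPKM in NFIA-Tg iWAT. Without its WT libraries Cxcl1 would not have passed the filter on low values in iWAT, so its call there is only a description. It fell just past the threshold without overlap (-0.82 ± 0.22, adjusted p = 0.0454), and the call was lost without any 1 of 5 of the 6 libraries, where adjusted p reached up to 0.136, and also without the filter on low values (adjusted p = 0.0894). Before induction NFIA-Tg was instead the higher, with 86, 74.8 and 97.6 FPKM in WT against 214, 132 and 179 FPKM in NFIA-Tg, a 2.04-fold higher mean (1.00 ± 0.19, adjusted p = 0.000589). At day 7 Cxcl1 was 3.65, 3.69 and 5.7 FPKM in WT against 1.67, 1.64 and 0.942 FPKM in libraries labelled NFIA-Tg, again without overlap (-1.14 ± 0.19, adjusted p = 0.000118). The genotype difference therefore turned from higher to lower between the days, by -2.14 ± 0.27 (adjusted p = 1.39e-05).

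Cxcl5 was listed at 0 in all 6 iWAT libraries, where 0 of 20 housekeeping genes were at 0. It was abundant at day 0, with 112, 86.2 and 145 FPKM in WT against 118, 82.3 and 108 FPKM in NFIA-Tg (-0.13 ± 0.18, adjusted p = 0.541). By day 7 Cxcl5 was 1.88, 1.72 and 2.8 FPKM in WT against 0.0683, 0.0687 and 0.036 FPKM in libraries labelled NFIA-Tg, or 78, 61 and 102 reads against 3, 3 and 1 (-1.55 ± 0.18, adjusted p = 4.23e-06). It fell by 5.18 ± 0.18 during differentiation in WT and by 6.60 ± 0.18 in the cells labelled NFIA-Tg, the largest drop of the 16 tested ligands on this scale in each genotype. The ratio of Cxcl1 to Cxcl5 was 0.675 to 0.867 at day 0 in WT and 1.61 to 1.81 in NFIA-Tg, and at day 7 it was 1.95 to 2.15 and 23.8 to 26.2. Cxcl2, Cxcl3 and Cxcl15, which lie beside Cxcl1 in GRCm38.p6, were not detected. Cxcl3 missed detection by 1 library, with 0.814, 1.21 and 1.5 FPKM in WT at day 0 and 0, 0 and 0.137 FPKM in NFIA-Tg.

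**Figure D3:**
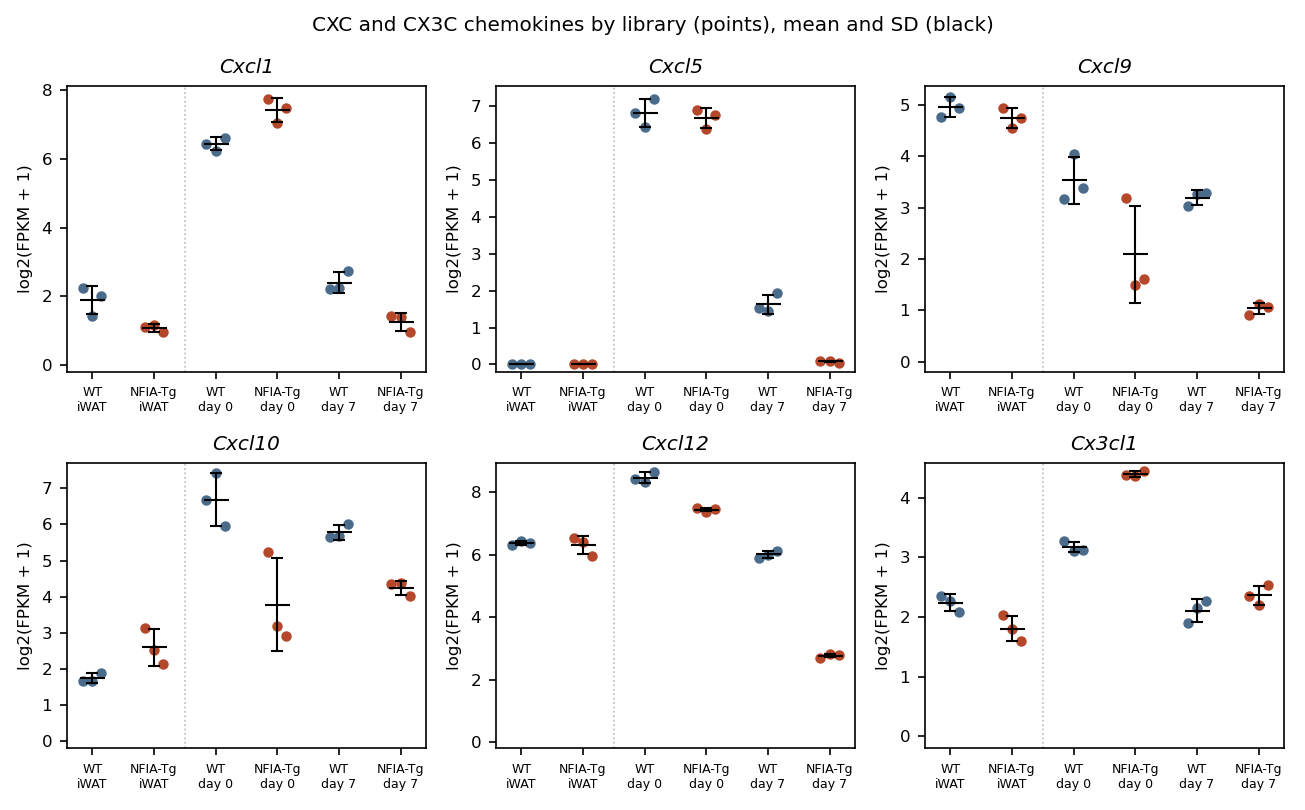
FPKM on a log2(FPKM + 1) axis of CXC chemokines and Cx3cl1 in the 6 groups, with 1 point per library, WT in blue and NFIA-Tg in red, and bars for the mean ± SD of 3 libraries. Cxcl12 is level between genotypes in iWAT and separated at day 0 and day 7, and Cxcl1 is higher in NFIA-Tg at day 0 and lower at day 7.

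Cxcl9 and Cxcl10 draw activated T cells through Cxcr3 and are classical targets of interferon. In cultures both were lower in libraries labelled NFIA-Tg at both times. Cxcl10 was 102, 171 and 60.9 FPKM in WT at day 0 and 37, 8.12 and 6.51 FPKM in NFIA-Tg, without overlap (-2.91 ± 0.50, adjusted p = 0.000283). At day 7 WT held 49.2, 49.9 and 64.1 FPKM and those labelled NFIA-Tg held 19.4, 19.7 and 15.2 FPKM, 3-fold apart between the means (-1.53 ± 0.50, adjusted p = 0.0136). NFIA-Tg replicate 1 at day 0 stood apart from the other two. Without it Cxcl10 changed by -3.64 at day 0 (adjusted p = 1.74e-06), and the shift of the genotype difference to day 7, 1.38 ± 0.71 with all libraries (adjusted p = 0.101), became 2.11 and passed the test (adjusted p = 0.000816), as it also did without WT replicate 3 at day 0 (1.74). Its change during differentiation in NFIA-Tg likewise went from 0.47 ± 0.50 (adjusted p = 0.391) to 1.20 (adjusted p = 0.00346).

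Cxcl9 was 8.02, 15.6 and 9.45 FPKM in WT at day 0 and 8.08, 1.8 and 2.06 FPKM in NFIA-Tg, where replicate 1 again lay within the WT range (-1.44 ± 0.36, adjusted p = 0.00371). After differentiation Cxcl9 was 7.2, 8.63 and 8.79 FPKM in WT against 0.883, 1.19 and 1.09 FPKM in libraries labelled NFIA-Tg, a 7.79-fold lower mean with no overlap (-2.16 ± 0.36, adjusted p = 0.000111). In iWAT Cxcl9 was 26.2, 34.8 and 30 FPKM in WT against 29.7, 22.4 and 26 FPKM in NFIA-Tg (-0.21 ± 0.14, adjusted p = 0.359). Cxcl10 in iWAT was 2.15, 2.2 and 2.72 FPKM in WT against 7.82, 4.7 and 3.39 FPKM in NFIA-Tg, above WT in every library but short of the threshold (0.85 ± 0.24, adjusted p = 0.0577; 0.0312 without NFIA-Tg replicate 3). The genotype differences of both were higher in iWAT than at day 7, by 1.95 ± 0.18 for Cxcl9 (adjusted p = 2.96e-06) and by 2.38 ± 0.30 for Cxcl10 (adjusted p = 3.55e-05). The balance of the pair also differed by material, with 11 to 15.8 times as much Cxcl9 as Cxcl10 in WT iWAT, 3.8 to 7.68 times in NFIA-Tg iWAT and 0.0454 to 0.316 times in the cultures. Cxcl11, the remaining Cxcr3 ligand, was not detected and peaked at 0.255 FPKM.

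The windows from 250 bases before to 50 bases after the start of 27 of the 39 members were found among RefSeq promoters of GRCm38.p6, a later build than the mm9 of the submitters' processing notes, and 16 of these belonged to detected ligands. They were searched on both strands for the NF-κB consensus, for the interferon-stimulated response element core (GAAA, any 2 bases, GAAA), for the nuclear factor I palindrome (TTGGC, any 5 bases, GCCAA) and for its single site TTGGC. No window was found for the detected ligands Ccl2, Ccl5, Ccl7, Ccl11, Ccl24, Cxcl5, Cxcl16 and Ccl21c, so these were not searched. The 16 ligands had 19 windows, and a ligand was counted if any of its windows matched, whereas the shares of all are of single promoters. The NF-κB consensus was present for 4 of the 16 (Ccl9, Ccl27a, Cxcl1 and Cxcl10) and in 5.8% of all 32851 promoters. The interferon element was present for 3 (Ccl19, Cxcl10 and Cxcl14) and in 3.44% of all promoters. The palindrome was present for 0 of the 16 and in 0.0365% of all promoters, and the single site, which is part of the palindrome, for 9 and in 46.7%. The windows of 4 ligands that differed between genotypes at both culture times are shown 5′ to 3′ on the gene's strand, with every match in capitals: Cxcl10 (chr5:92348840-92349139, minus strand), Cxcl9 (chr5:92328030-92328329, minus strand), Cxcl1 (chr5:90890995-90891294, plus strand) and Cxcl12 (chr6:117168285-117168584, plus strand).
Cxcl10: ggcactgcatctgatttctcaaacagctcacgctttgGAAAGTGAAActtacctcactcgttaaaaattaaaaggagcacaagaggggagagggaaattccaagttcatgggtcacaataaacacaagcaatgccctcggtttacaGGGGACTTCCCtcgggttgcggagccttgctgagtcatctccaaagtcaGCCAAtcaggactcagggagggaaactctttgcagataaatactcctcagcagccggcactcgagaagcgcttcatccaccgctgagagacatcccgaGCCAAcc
Cxcl9: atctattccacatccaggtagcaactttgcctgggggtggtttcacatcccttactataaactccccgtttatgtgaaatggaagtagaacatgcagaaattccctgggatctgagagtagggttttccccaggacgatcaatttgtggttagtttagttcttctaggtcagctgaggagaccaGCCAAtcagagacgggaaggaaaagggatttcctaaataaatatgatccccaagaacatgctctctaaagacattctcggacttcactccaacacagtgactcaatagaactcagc
Cxcl1: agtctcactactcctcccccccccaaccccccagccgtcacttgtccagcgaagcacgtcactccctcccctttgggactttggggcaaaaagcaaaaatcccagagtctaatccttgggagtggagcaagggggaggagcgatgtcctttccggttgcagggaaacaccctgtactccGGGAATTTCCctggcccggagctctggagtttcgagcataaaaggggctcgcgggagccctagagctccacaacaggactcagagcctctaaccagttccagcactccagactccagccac
Cxcl12: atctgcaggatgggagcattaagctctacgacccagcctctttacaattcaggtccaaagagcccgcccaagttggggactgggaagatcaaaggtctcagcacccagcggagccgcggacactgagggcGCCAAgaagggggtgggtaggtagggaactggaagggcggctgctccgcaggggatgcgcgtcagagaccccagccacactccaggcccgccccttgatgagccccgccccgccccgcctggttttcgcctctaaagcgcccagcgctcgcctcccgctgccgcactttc
In Cxcl10 the first run of capitals is the interferon element, the second is a pair of overlapping NF-κB matches and the others are single nuclear factor I sites on the opposite strand. In Cxcl1 the run is an NF-κB match, and in Cxcl9 and Cxcl12 it is a single nuclear factor I site on the opposite strand. A match is a stretch of letters and not a shown binding site.

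Cxcl12, the ligand of Cxcr4 that holds haematopoietic and other cells near stroma, showed the largest genotype difference of the 16 tested ligands at day 7 on this scale and none that passed the test in tissue. In iWAT it was 77.3, 84.7 and 81.3 FPKM in WT against 91.1, 84.3 and 61.5 FPKM in NFIA-Tg (-0.06 ± 0.15, adjusted p = 0.833). At day 0 WT held 339, 321 and 400 FPKM and NFIA-Tg held 178, 165 and 173 FPKM, 2.06-fold lower (-1.03 ± 0.08, adjusted p = 2.14e-07). By day 7 Cxcl12 was 58.6, 62.5 and 68.8 FPKM in WT against 5.49, 6 and 5.94 FPKM in libraries labelled NFIA-Tg, 10.9-fold lower with no overlap (-3.24 ± 0.08, adjusted p = 3.35e-12). The genotype difference shifted by -2.21 ± 0.11 from day 0 to day 7 (adjusted p = 3.07e-09) and was 3.18 ± 0.17 higher in iWAT than at day 7 (adjusted p = 6.64e-08). Cxcl12 was counted by 713 or more reads in every culture library. Of its receptors, Ackr3, which takes up Cxcl12, was 24.1 ± 3.14 FPKM in WT against 35.5 ± 2.46 in NFIA-Tg at day 0 (0.54 ± 0.08, adjusted p = 7.51e-05) and 2.12 ± 0.15 and 1.12 ± 0.0408 FPKM at day 7 (-0.55 ± 0.08, adjusted p = 3.14e-05). Cxcr4 was at most 0.116 FPKM in the other culture groups and 2.49, 1.92 and 2.5 FPKM in the day 7 libraries labelled NFIA-Tg, through which alone it passed the filter on low values, so that it had to differ and no test is given.

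Cxcl14, a constitutive ligand of epithelium and stroma, was chiefly a tissue ligand. It was 35.2, 28 and 39.6 FPKM in WT iWAT and 43.9, 47.8 and 43.5 FPKM in NFIA-Tg iWAT, higher in every library but short of the threshold (0.40 ± 0.13, adjusted p = 0.0927). At day 0 WT held 1.98, 1.82 and 2.14 FPKM and NFIA-Tg held 1.1, 0.445 and 0.67 FPKM (-0.79 ± 0.11, adjusted p = 5.36e-05). Without its WT libraries at day 0 Cxcl14 would not have passed the filter on low values in the cultures. The filter thus favoured this call, which is only a description. By day 7 Cxcl14 was near 0 in both, at most 0.124 FPKM, so no genotype difference could be seen at this depth (-0.03 ± 0.11, adjusted p = 0.803).

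Cx3cl1 and Cxcl16 are the ligands made with a membrane anchor, and they are read by Cx3cr1 and Cxcr6. At day 0 both were higher in NFIA-Tg. Cx3cl1 was 8.67, 7.64 and 7.76 FPKM in WT against 19.8, 19.5 and 20.8 FPKM in NFIA-Tg, 2.5-fold apart (1.22 ± 0.10, adjusted p = 3.33e-07). Cxcl16 was 8.75, 7.68 and 8.59 FPKM in WT against 12.2, 11.8 and 11.2 FPKM in NFIA-Tg (0.44 ± 0.07, adjusted p = 0.000207). At day 7 Cxcl16 was 3.98, 4.56 and 4.56 FPKM in WT against 0.874, 1.15 and 1.22 FPKM in libraries labelled NFIA-Tg, 4.04-fold lower (-1.37 ± 0.07, adjusted p = 2.93e-09). Cx3cl1 was 2.74, 3.43 and 3.84 FPKM in WT against 4.11, 3.62 and 4.78 FPKM in those labelled NFIA-Tg, which overlapped, with a small increase that passed the test (0.26 ± 0.10, adjusted p = 0.0271). That call was lost without WT replicate 1 (adjusted p = 0.132), NFIA-Tg replicate 1 (0.0522) or NFIA-Tg replicate 3 (0.123), on a TPM scale (0.0928) and without the filter on low values (0.05). The genotype difference shifted from day 0 to day 7 by -1.81 ± 0.10 for Cxcl16 (adjusted p = 1.11e-08) and by -0.97 ± 0.14 for Cx3cl1 (adjusted p = 3.85e-05). In iWAT Cxcl16 was 10.8, 9.19 and 10.7 FPKM in WT against 9.85, 8.35 and 9.7 FPKM in NFIA-Tg (-0.12 ± 0.12, adjusted p = 0.526). Cx3cl1 there was 4.13, 3.82 and 3.24 FPKM in WT against 3.08, 2.48 and 2.02 FPKM in NFIA-Tg, lower in every library without passing the test (-0.43 ± 0.16, adjusted p = 0.117).

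The ligands that guide lymphocytes and dendritic cells to lymphoid tissue were found in iWAT alone above 1 FPKM. The Ccr7 ligand Ccl21a was 0.689, 0 and 0 FPKM in WT against 2.7, 1.66 and 3.34 FPKM in NFIA-Tg. Its copies Ccl21c and Ccl21d were listed at 0 in all 3 WT libraries, and were 1.32, 1.58 and 2.29 FPKM and 3.48, 5.49 and 2.38 FPKM in NFIA-Tg. All 3 passed the filter on low values only through the 3 NFIA-Tg iWAT libraries, so they had to differ and no test of them is given. They were not tested at all without any 1 of those libraries or when only the highest entry of each symbol was used. The copies are nearly identical and share reads, and the NFIA-Tg levels printed here are 2 (Ccl21a) and 4 (Ccl21c and Ccl21d) times those of the highest entry. Ccl19, the other Ccr7 ligand, was 3.24, 0 and 0 FPKM in WT against 4.26, 0 and 4.23 FPKM in NFIA-Tg (0.90 ± 0.75, adjusted p = 0.467), each the sum of 2 entries of which the higher reached 1.62, 2.13 and 2.11 FPKM in the libraries above 0. Cxcl13, which attracts B cells through Cxcr5, was 1.27, 2.11 and 3.42 FPKM in WT against 1.54, 1.8 and 5.16 FPKM in NFIA-Tg (0.16 ± 0.36, adjusted p = 0.804). Among 4 markers of lymphatic endothelium, a known source of Ccl21, Lyve1 rose from 6.46 to 14.1 FPKM (adjusted p = 0.0161). The 4 markers summed to 13.1 to 16.8 FPKM in WT against 18.6 to 27.4 FPKM in NFIA-Tg. Lyve1 was most of that sum in NFIA-Tg but not in WT. Flt4 lay the other way in every library, with 4.63, 5.02 and 4.68 FPKM in WT against 3.35, 3.71 and 3.26 FPKM in NFIA-Tg, and did not pass the test (adjusted p = 0.076). Pdpn had means of 3.71 and 4.84 FPKM (adjusted p = 0.448), and Prox1 was at most 0.0644 FPKM in iWAT. The part of these markers in the levels of Ccl21 was not tested.

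The epithelial CC ligands were the only detected ones whose mean was highest, among the culture groups, in the differentiated cells labelled NFIA-Tg. Ccl25, a ligand of Ccr9 known from thymus and gut, was 3.41, 3.48 and 2.89 FPKM in WT at day 7 against 4.79, 5 and 4.96 FPKM in those labelled NFIA-Tg (0.48 ± 0.10, adjusted p = 0.000571). Ccl27a, a Ccr10 ligand known from skin, was 1.35, 1.44 and 1.46 FPKM in WT at day 7 against 3.29, 2.73 and 2.54 FPKM in those labelled NFIA-Tg (0.67 ± 0.07, adjusted p = 2.15e-06). At day 0 Ccl27a was already higher, at 2.23, 2.63 and 2.4 FPKM against 1.6, 1.68 and 1.73 in WT (0.36 ± 0.07, adjusted p = 0.00087). Ccl25 was not called at day 0 (0.17 ± 0.10, adjusted p = 0.138) unless NFIA-Tg replicate 1 was left out (0.31, adjusted p = 0.00231). In iWAT neither passed the test, with means of 1.28 and 1.84 FPKM for Ccl25 (adjusted p = 0.247) and 2.55 and 2.37 FPKM for Ccl27a (adjusted p = 0.919), in WT and NFIA-Tg. Ccl27a has near-identical copies, one of them listed as Ccl27b at 0 throughout, so its values are uncertain.

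The other undetected members were Ccl1, Ccl17, Ccl20, Ccl22, Ccl26, Ccl28, Ccl21b and Cxcl17, making 15 with Ccl3, Ccl4, Ccl27b, Cxcl2, Cxcl3, Cxcl11 and Cxcl15. Ccl1, Ccl26 and Ccl27b were listed at 0 in every library. Ccl22, a Ccr4 ligand made by dendritic cells and macrophages, missed detection by 1 library, with 0.599, 1.99 and 1.4 FPKM in WT iWAT and 0.172, 0.128 and 0.421 FPKM in NFIA-Tg iWAT.

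In iWAT 23 ligands were tested and 3 were higher and 3 lower in NFIA-Tg, or 26.1%, beside 11.4% of all 12396 genes tested (5.96% higher and 5.44% lower). The median change of the ligands there was -0.06 and that of all genes 0.05. The 3 counted as higher are the Ccl21 copies that entered the test only through NFIA-Tg, which leaves 3 lower among the other 20. These 3 include Cxcl1, which would not have passed the filter on low values without its WT libraries. At day 0, 16 ligands were tested and 5 were higher and 6 lower, or 68.8%, beside 63.0% of all 12553 genes (28.1% higher and 34.9% lower). The medians were -0.05 and -0.03. A ligand that passed the filter only through the group where it is high had to differ, so these shares are descriptions. Of the tested ligands, 20 in iWAT, 15 of 16 at day 0 (all but Cxcl14) and 12 of 16 at day 7 had a mean of at least 1 FPKM in both genotypes. Between the days, 15 of 16 had such a mean at both in WT and 12 of 16 in NFIA-Tg.

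At day 7 the same 16 ligands were tested, and 3 were higher and 11 lower in libraries labelled NFIA-Tg, or 87.5%, beside 80.9% of all genes (29.8% higher and 51.1% lower). Their median change was -1.22 against -0.17 for all genes. During differentiation in WT, 1 ligand rose (Ccl25) and 10 fell, or 68.8% beside 81.6% of all genes, with 46.2% of genes rising and 35.4% falling (43.8% falling on a TPM scale), with a median of -1.27 against 0.09. In the cells labelled NFIA-Tg, 2 ligands rose (Ccl25, and Ccl27a by 0.17 ± 0.07, a call that most alternatives lost) and 13 fell, or 93.8% beside 87.2% of all genes, with 45.7% of genes rising and 41.5% falling (50.3% falling on a TPM scale), with a median of -2.32 against 0.05. In these 3 comparisons the shares called were not far from those of all genes, and the ligands' medians lay below those of all genes.

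The genotype difference shifted between day 0 and day 7 for 12 of the 16 ligands, 75% beside 72.1% of all genes, upward for 2 and downward for 10 (29.5% and 42.6% of all genes), with a median of -1.06 against -0.11. Between iWAT and day 7 it differed for 13 of 23 ligands, 56.5% beside 54.3% of all 13101 genes tested. It was higher in iWAT for 11 and lower for 2, with a median of 0.56 against 0.18, while 35.8% of all genes were higher there (25.3% with median-of-ratios scaling) and 18.5% lower.

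**Figure D4:**
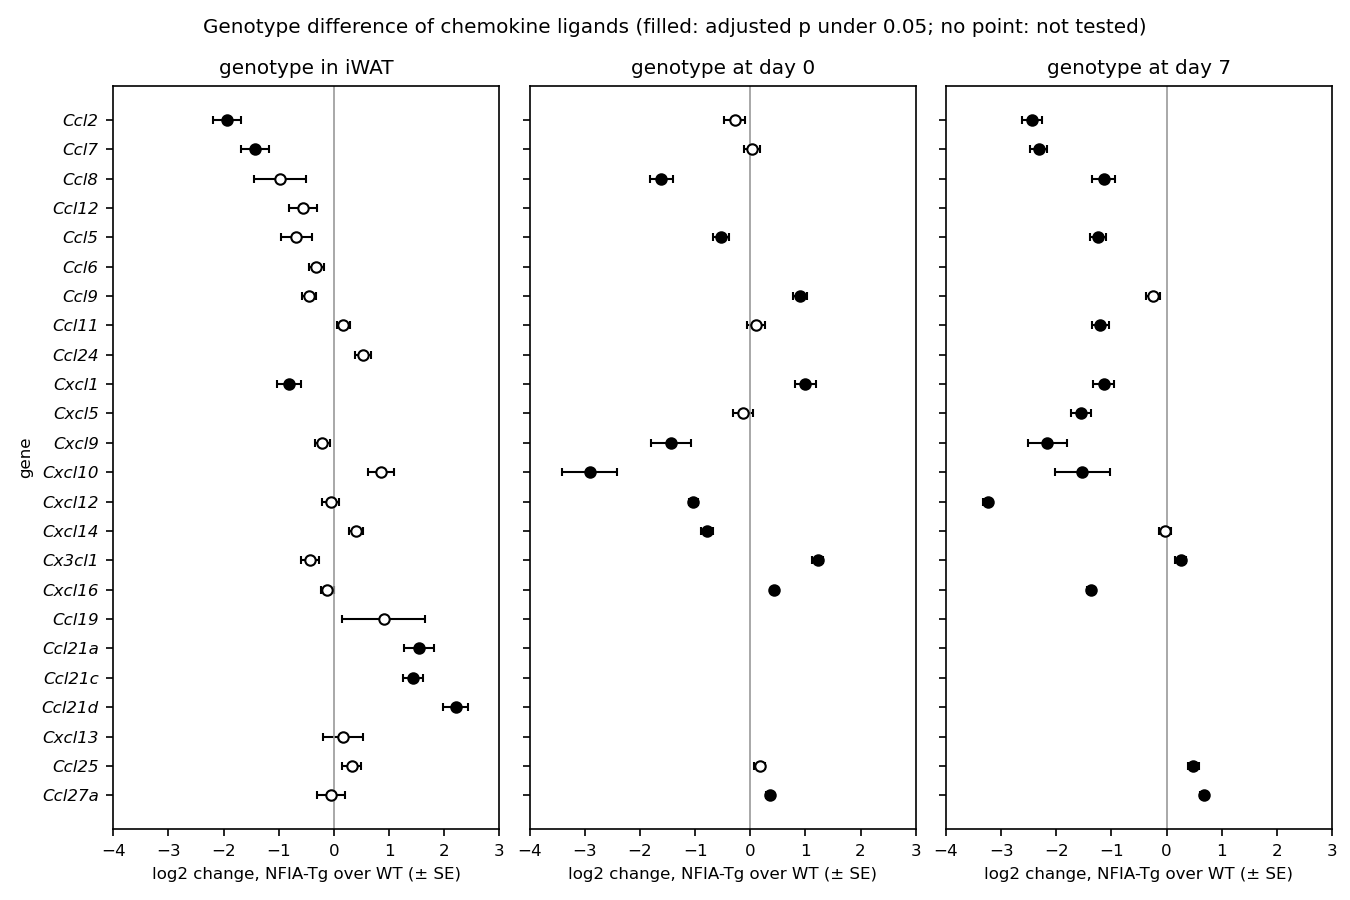
Log2 change between NFIA-Tg and WT (points, with bars of 1 SE) of each tested ligand in iWAT, at day 0 and at day 7, with called changes filled. The Ccl21 copies entered the iWAT test only through NFIA-Tg, and Cxcl14 entered the culture tests only through WT at day 0. Cxcl1 would not have entered the iWAT test without its WT libraries. Ccl2 lies at -1.94 in iWAT, at -0.28 at day 0 and at -2.44 at day 7, and Cxcl12 goes from about 0 in iWAT to -3.24 at day 7.

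**Figure D5:**
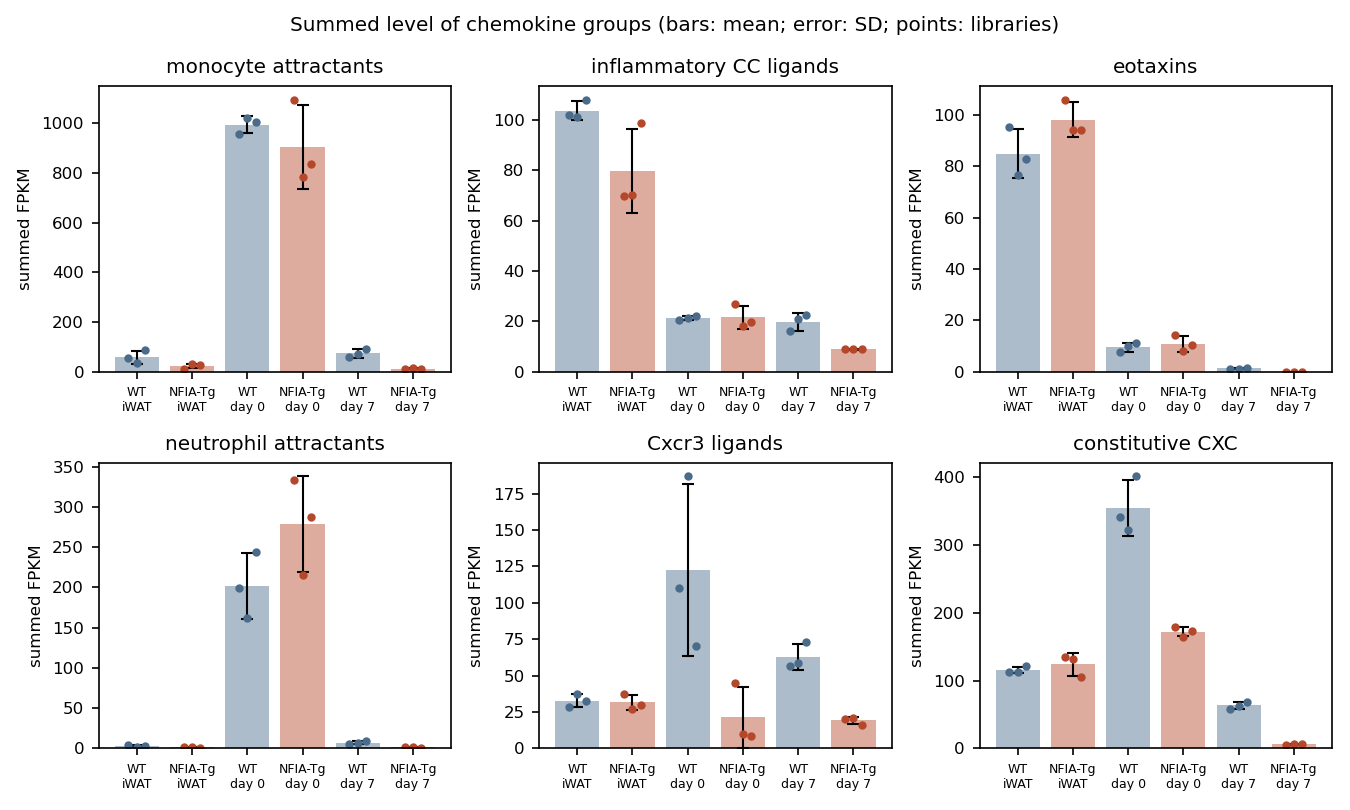
Summed FPKM of the ligands of 6 roles (panels, each with its own linear axis from 0) in the 6 groups, with bars for the mean, error bars for the SD and points for the 3 libraries. The monocyte attractants are the largest sum at day 0, at 993 and 903 FPKM on average, and stand at 74.5 and 12.4 FPKM at day 7 in WT and in libraries labelled NFIA-Tg.

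By role, the summed monocyte attractants (Ccl2, Ccl7, Ccl8 and Ccl12) were 58.5 ± 25.8 FPKM in WT iWAT and 23.7 ± 8.97 in NFIA-Tg iWAT, 993 ± 33.6 and 903 ± 168 at day 0, and 74.5 ± 17.7 and 12.4 ± 1.74 at day 7. Constitutive Cxcl12 and Cxcl14 together were 115 ± 4.79 and 124 ± 16.6 FPKM in WT and NFIA-Tg iWAT, and 63.4 ± 5.17 and 5.85 ± 0.246 FPKM at day 7. Of the summed roles, only the epithelial ligands were higher in the day 7 libraries labelled NFIA-Tg, at 7.77 ± 0.296 FPKM beside 4.67 ± 0.297 in WT.

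Receptors for these ligands were looked at as a list of 23. In iWAT 11 were tested, and 1 rose, the Ccl27 and Ccl28 receptor Ccr10, from 0.865 ± 0.254 to 2.59 ± 0.294 FPKM, and 0 fell, or 9.09% called beside 11.4% of all genes. Without its NFIA-Tg libraries Ccr10 would not have passed the filter on low values. In cultures only Ackr3 and Cxcr4 could be tested, and Ccr2, the receptor of Ccl2, was listed at 0 in every culture library. Pf4, a platelet and macrophage CXC chemokine outside the symbol rule, was 48.5 ± 6.02 FPKM in WT iWAT and 87.7 ± 9.8 in NFIA-Tg iWAT (adjusted p = 0.00608).

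Of 25 genes that induce chemokines or carry NF-κB and interferon signals, 20 were tested in iWAT, where the TNF receptors Tnfrsf1a (113 to 82 FPKM, adjusted p = 0.0389) and Tnfrsf1b (16 to 9.51 FPKM, adjusted p = 0.0271) fell and 0 rose, or 10% called beside 11.4% of all genes. In cultures 21 were tested, of which 7 were higher and 10 lower in NFIA-Tg at day 0, or 81% beside 63.0% of all genes. At day 7, 4 were higher and 14 lower, or 85.7% beside 80.9%, so the shares in iWAT and at day 7 lay near those of all genes. At day 7 the list's median change was -0.58 beside -0.17 for all genes. The interleukin-1 receptor Il1r1 was 25.6 FPKM in WT against 6.15 in libraries labelled NFIA-Tg (-1.89 ± 0.07, adjusted p = 8.91e-11). The NF-κB target and inhibitor Nfkbia was 35.5 and 16 FPKM (-1.11 ± 0.09, adjusted p = 8.73e-08). At day 0 Il1r1 had been higher in NFIA-Tg (61.7 and 108 FPKM, adjusted p = 7.84e-07), as had the interferon gamma receptor Ifngr1 (36.4 and 89.2 FPKM, adjusted p = 2.47e-08). The cytokines Ifng and Il1b were at 0 in every day 7 library.

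Some markers of other cell types also differed between genotypes. In iWAT, where 11.4% of all genes were called, the 8 macrophage markers summed to 616 to 780 FPKM in WT against 547 to 685 FPKM in NFIA-Tg. Of these 8, 0 passed the test, and so short a list can hold 0 at that share. Endothelial markers summed to 338 to 413 FPKM in WT against 239 to 290 FPKM in NFIA-Tg, with Cdh5 and Pecam1 called of 5, or 40% beside 11.4%. Of 4 dendritic cell markers 3 were tested, and Itgax alone was called, or 33.3%. It fell from 4.44 to 1.34 FPKM (adjusted p = 0.0126). Neutrophil markers summed to 11 to 24.2 FPKM in WT against 21 to 55.8 FPKM in NFIA-Tg, with Ly6g and Mpo listed at 0. Of 3 tested, S100a8 alone was called, or 33.3% (9.41 to 31.6 FPKM, adjusted p = 0.0386). S100a9 had means of 4.3 and 1.69 FPKM (adjusted p = 0.221) and Csf3r of 2.05 and 1.82 FPKM (adjusted p = 0.689). Lymphocyte markers summed to 4.51 to 17.8 FPKM in WT against 1.9 to 9.65 FPKM in NFIA-Tg. At day 7 the 7 preadipocyte and fibroblast markers summed to 531 to 588 FPKM in WT against 81.1 to 110 FPKM in libraries labelled NFIA-Tg, beside 3614 to 3950 and 3224 to 3398 FPKM at day 0. At day 7, 5 of the 6 tested fell and Pi16 rose (0.40 ± 0.08, adjusted p = 0.000665), or 100% called beside 80.9% of all genes, 51.1% of which were lower. Pi16 was below 1 FPKM in both genotypes there, with means of 0.242 FPKM in WT against 0.641 in libraries labelled NFIA-Tg. Of 6 adipocyte markers 5 were tested at day 7 and 2 were lower in libraries labelled NFIA-Tg, or 40% called beside 80.9% of all genes. Adipoq was 1295 FPKM in WT against 258 in libraries labelled NFIA-Tg (5.01-fold lower, adjusted p = 3.99e-12) and Cidec 1350 against 759 FPKM (1.78-fold lower, adjusted p = 1.58e-06). Fabp4 did not pass the test (adjusted p = 0.19), nor did Plin1 (413 and 379 FPKM) and Lipe (303 and 281 FPKM). Of the 8 macrophage markers 2 were tested at day 7 and 1 was called, or 50% beside 80.9% of all genes. This was Cd68, higher in libraries labelled NFIA-Tg at 6.98 FPKM against 2.66 (adjusted p = 9.8e-10). Lyz2 lay the other way without passing the test, at 0.328 FPKM in WT against 0.121. Csf1r, Fcgr1 and Mrc1 were also lower, from WT means of at most 0.212 FPKM, and Adgre1, C1qa and Cd163 were at 0 in every day 7 library. The part of these markers in the ligands' changes was not tested.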

How the data were processed

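RNA-seq of polyadenylated RNA was deposited for 18 samples, grouped from their titles into 6 groups of 3. The deposited FPKM values, 1 per gene entry with its length per the file headers, were made by the authors from stranded libraries. STAR 2.7.8a and StringTie 2.1.1 appear in the submitters' processing notes beside the build mm9, without their roles, and neither the annotation nor the counting of shared reads is stated in the sources used here. The iWAT tables list 25209 symbols and those of the cultures 24825, with 24338 shared, and entries under a common symbol were added up. Multiplying FPKM by length gave, for the cultures, whole reads for 100% of values within 0.01. These give the depth and served in 1 alternative, limma's voom. Counting error alone does not cover differences between cultures or animals.

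Changes were tested with limma 3.58.1 (R 4.3.3, eBayes with a mean-variance trend) on log2(FPKM + 1) over all genes with at least 1 FPKM in at least 3 of the fitted libraries. Tests were two-sided with Benjamini-Hochberg adjustment over all genes tested, and an adjusted p under 0.05 was called. Fold changes between means are ratios of FPKM, while log2 changes with this pseudocount understate what low genes do. The iWAT fit used 6 libraries, the culture comparisons in 1 fit of 12, and iWAT against day 7 on 12. The fit was tested on simulated data. Members with a mean of at least 5 FPKM in 1 group and a called genotype difference or shift are given in full, with Ccl2 first, and other members by their values. The members and lists were chosen with earlier results of these data known. Alternatives were a pseudocount of 0.1, no filter or one at FPKM 5, median-of-ratios and TPM scaling, no trend, a replicate block, the highest entry per symbol and leaving out each library.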

Additional observations from a re-analysis of the deposited data

Results flagged for a closer look

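In the cultures, the genotype difference at day 7 minus that at day 0 passed limma's test for 12 of 16 ligands, 75% beside 72.1% of all genes. On the log2(FPKM + 1) scale it was -2.17 for Ccl2, -2.35 for Ccl7, -0.70 for Ccl5, -1.15 for Ccl9 and -1.32 for Ccl11. Among CXC and CX3C ligands it was -2.14 for Cxcl1, -1.42 for Cxcl5, -2.21 for Cxcl12, -1.81 for Cxcl16 and -0.97 for Cx3cl1. It was positive for Ccl27a (0.31) and for Cxcl14 (0.76), whose call was lost with voom on recovered reads (adjusted p = 0.288) and whose day 7 levels were near 0. Cxcl14 also passed the filter on low values only through the WT libraries at day 0, where it is highest among the cultures. The day 7 terms are those of the labels, against which Nfia goes.

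The genotype difference in iWAT minus that at day 7 passed the test for 13 of 23 ligands, 56.5% beside 54.3% of all genes. It was largest for Cxcl12 (3.18), Cxcl10 (2.38) and Cxcl9 (1.95). It was 1.55 for Cxcl5, which is listed at 0 in iWAT. For Ccl21a it was 1.55 and for Ccl21c 1.43, and both are at 0 in the cultures. These 3 differences thus come from 1 material. Both Ccl21 copies passed the filter on low values only through NFIA-Tg iWAT, and Cxcl5 passed it here only through WT at day 7. All 3 therefore had to differ. It was 1.38 for Ccl11, 1.24 for Cxcl16, 0.88 for Ccl7, 0.53 for Ccl24 and 0.43 for Cxcl14, and it was negative for Ccl27a (-0.72) and Cx3cl1 (-0.69). Ccl24 was at 0 in every day 7 library, so its value also comes from iWAT alone. There the genotype difference of Ccl24 was the same 0.53 and did not pass the test (adjusted p = 0.0559). The call of Ccl24 here was lost with a pseudocount of 0.1 (adjusted p = 0.0672). Those of Ccl7, Ccl27a and Cxcl14 were lost under several alternatives.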

How the results depend on the processing

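The calls of Ccl2 kept their direction and side of the threshold in all 7 comparisons under every alternative run. The count of ligands called in iWAT went from 6 to 3 with the filter at FPKM 5 and to 3 with the highest entry per symbol, and leaving out single libraries gave 2 to 6, the lowest without NFIA-Tg replicate 1 or 2. The share of all genes called there was 11.4%, and it was 14.3% with the filter at FPKM 5 and 11.4% with the highest entry. Leaving out single libraries gave shares of 5.06% to 10.3%. Ccl21a, Ccl21c and Ccl21d failed the filter and were not tested with the highest entry, with the filter at FPKM 5 or without any 1 NFIA-Tg library. Without a filter, the count rose to 17 at day 0 (from 11), to 17 for differentiation in WT (from 11) and to 19 for the shift between days (from 12), where the ligands tested went from 16 to 30. The shares of all genes called then fell from 63% to 45.7%, from 81.6% to 62% and from 72.1% to 54.2%. With the filter at FPKM 5 the count for iWAT against day 7 fell from 13 to 8, while the share of all genes called went from 54.3% to 58.3%. Without a filter 934 genes were called in iWAT in place of 1413.

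Directions turned for Ccl27a in differentiation of NFIA-Tg on a TPM scale (-0.02), for the shift of Ccl8 between days at a pseudocount of 0.1 (-1.46), on a TPM scale (-0.23) and with voom (-1.89), and for Ccl6 in iWAT against day 7 at a pseudocount of 0.1 (0.42). Leaving out single libraries also turned values that had not passed the test: in iWAT Ccl27a (-0.31 to 0.13), Cxcl12 (-0.17 to 0.11) and Cxcl13 (-0.24 to 0.41), at day 0 Ccl7 (-0.11 to 0.12), Ccl11 (-0.09 to 0.3) and Cxcl5 (-0.32 to 0.05), at day 7 Cxcl14 (-0.06 to 0.01), in differentiation of WT Ccl5 (-0.17 to 0.09), and in iWAT against day 7 Ccl8 (-0.22 to 0.64). The causes were not tested. Of 2258 other values for single ligands, 2144 kept their direction and call.

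Median-of-ratios scaling moved the median of all genes at day 7 from -0.17 to -0.06. Same-numbered libraries share only a number, since their deviations correlated at -0.108 to 0.156. With the replicate block 5 ligands were called in iWAT (without Cxcl1, at adjusted p = 0.0623), 11 at day 0, 14 at day 7, 11 and 14 for differentiation in WT and NFIA-Tg, 12 for the shift and 12 for iWAT against day 7. The shares of all genes called with the block were 10.3% in iWAT, 62.3% at day 0 and 80.7% at day 7. They were 81.6% and 87% for differentiation in WT and NFIA-Tg, 71.9% for the shift and 53.9% for iWAT against day 7. Depth limits ligands near 0, such as Ccl8, Ccl11 and Cxcl5 at day 7.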
